A study of Mus musculus with 12 samples.

Results

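The 39 genes described here encode cytokines, chemokines, the receptors and sensors that induce them, adhesion molecules and the NF-κB transcription factors with their inhibitors. They were taken as a fixed list of symbols, chosen with earlier results of these data known. All 39 are among the 24421 gene rows counted. Expression was measured by bulk RNA sequencing of pancreatic islets, the hormone-secreting cell clusters of the pancreas, in 6 libraries labelled Il22ra1βKO (here BKO) and 6 labelled Ins2Cre (here Cre). The BKO label stands for loss of Il22ra1, a subunit of the interleukin-22 receptor, in the insulin-producing β cells. Cre mice carry a recombinase named for the insulin 2 gene and serve as the controls, and all mice had 6 weeks of high-fat feeding. The labels do not say whether the BKO mice carry the same driver, nor the strain, sex or age, the part of Il22ra1 deleted or any pooling of animals. Whether the libraries come from separate animals is also not stated, and p-values therefore measure only how these libraries spread, which may be technical.

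NF-κB is a family of dimeric transcription factors held in the cytoplasm by IκB proteins. When interleukin-1, tumour necrosis factor or microbial products bind their receptors, adaptor proteins and kinases mark the IκB proteins for destruction, and the freed dimers enter the nucleus and switch on cytokine, chemokine and adhesion genes. Among the first genes switched on are those for the inhibitors themselves, which closes a feedback loop. In islets, both β cells and the endothelial, mesenchymal and immune cells around them can take part in this response, and interleukin-1β is known to impair insulin secretion.

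The DNA sites that NF-κB binds, called κB sites, are shown first because they are the letters through which these factors act, and 4 members with a match close to the start of transcription serve as examples. The RefSeq promoter table (GRCm38.p6, the assembly of mm10) held 32 promoters for 26 of the 39 members. Those without an entry are Ccl2, Ccl5, Ccl7, Cxcl5, Cxcl16, Tlr4, Cd14, Cd40, Relb, Nfkb1, Nfkbiz, Vcam1 and Nos2. Both strands of the 250 bases before each start were searched for 2 patterns, the common κB consensus and one that overlaps with it, GGG, any 2 bases and TTTCC. In the sequences below, capitals mark every match to either pattern, and each is written 5′ to 3′ along the gene's strand. The examples are not a sample of the members with large differences: Cxcl12 and Ptgs2 had no match, and Cxcl10, Tlr2, Il1r1, Nfkbie and the untested Nlrp3 had one. Il6 and Nfkbia were added to this set after their values had been seen.
Cxcl1, chr5:90891131-90891209, plus strand: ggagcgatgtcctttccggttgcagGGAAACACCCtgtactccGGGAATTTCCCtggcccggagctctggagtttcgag
Cxcl2, chr5:90903777-90903855, plus strand: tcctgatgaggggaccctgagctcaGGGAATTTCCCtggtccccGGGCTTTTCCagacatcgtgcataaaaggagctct
Il6, chr5:30013045-30013104, plus strand: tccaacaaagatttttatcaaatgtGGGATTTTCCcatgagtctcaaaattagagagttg
Nfkbia, chr12:55492648-55492701, minus strand: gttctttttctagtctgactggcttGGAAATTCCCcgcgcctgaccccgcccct

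Cxcl1, Cxcl2 and Nfkbia shared the same 10 letters, GGGAATTTCC, which lie 71 to 62 bases before the start in Cxcl1, 97 to 88 in Cxcl2 and, on the reverse strand, 29 to 20 in Nfkbia. In Il6 the match was GGGATTTTCC, from 44 to 35 bases before the start. Cxcl1 has a second match, on the reverse strand, and Cxcl2 a second one on the printed strand. The pattern that ends in TTTCC was found in 8 of the 32 member promoters (25%) and in 1.41% of all 32851 promoters of the table. The κB consensus was found in 15 of them (46.9%) and in 7.25% of all. The site of STAT factors, TTCNNNGAA, which act downstream of the interleukin-22 receptor, was found in 3 (9.38% against 7.02% of all), in front of Icam1, Myd88 and Nfkb2. The AP-1 site TGANTCA was found in 5 (15.6% against 6.75%). The list holds genes that NF-κB is known to switch on, so the κB shares partly follow from how it was drawn and were not tested. A match describes the letters in this window only.

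No member passed the test between genotypes. Of the 36 members tested, 35 (97.2%) had a log2 fold change above 0, as did 52.8% of all tested genes, and Casp1, the inflammatory caspase, lay below 0. Tnf, Cxcl9 and Nlrp3 did not pass the filter on low counts. With the quasi-likelihood test of edgeR and p-values adjusted by Benjamini-Hochberg over 13583 genes, 0 members were called at an adjusted p under 0.05, as were 0% of all genes. At an unadjusted p under 0.05, 20 members were higher in BKO (55.6%), where 8.7% of all tested genes were, and 0 were lower, where 4.66% of all were. The median log2 fold change (BKO against Cre) of the 36 was 0.35, against 0.0078 over all tested genes. Because the list was chosen with earlier results of these data known, these shares only describe it. DESeq2 called 3 members higher, Cd14, Cd40 and Irak3, and 0 lower, where it called 1.24% and 0.398% of all genes, and limma-voom called 0 members and 0% of all. Single libraries moved these counts. Without BKO-5 the number of members higher at an unadjusted p under 0.05 was 9 (6.2% of all genes), without BKO-2 it was 10 (5.54%), without Cre-4 it was 13 (6.11%) and without Cre-6 also 13 (6.64%), with 1 lower, Casp1 (3.83%). Without BKO-4, edgeR called 4 members at an adjusted p under 0.05, Cd14, Cd40, Irak3 and Tnfaip3 (0.989% of all genes), and without Cre-5 it called 2, Cd40 and Irak3 (0.77%).

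**Figure D1:**
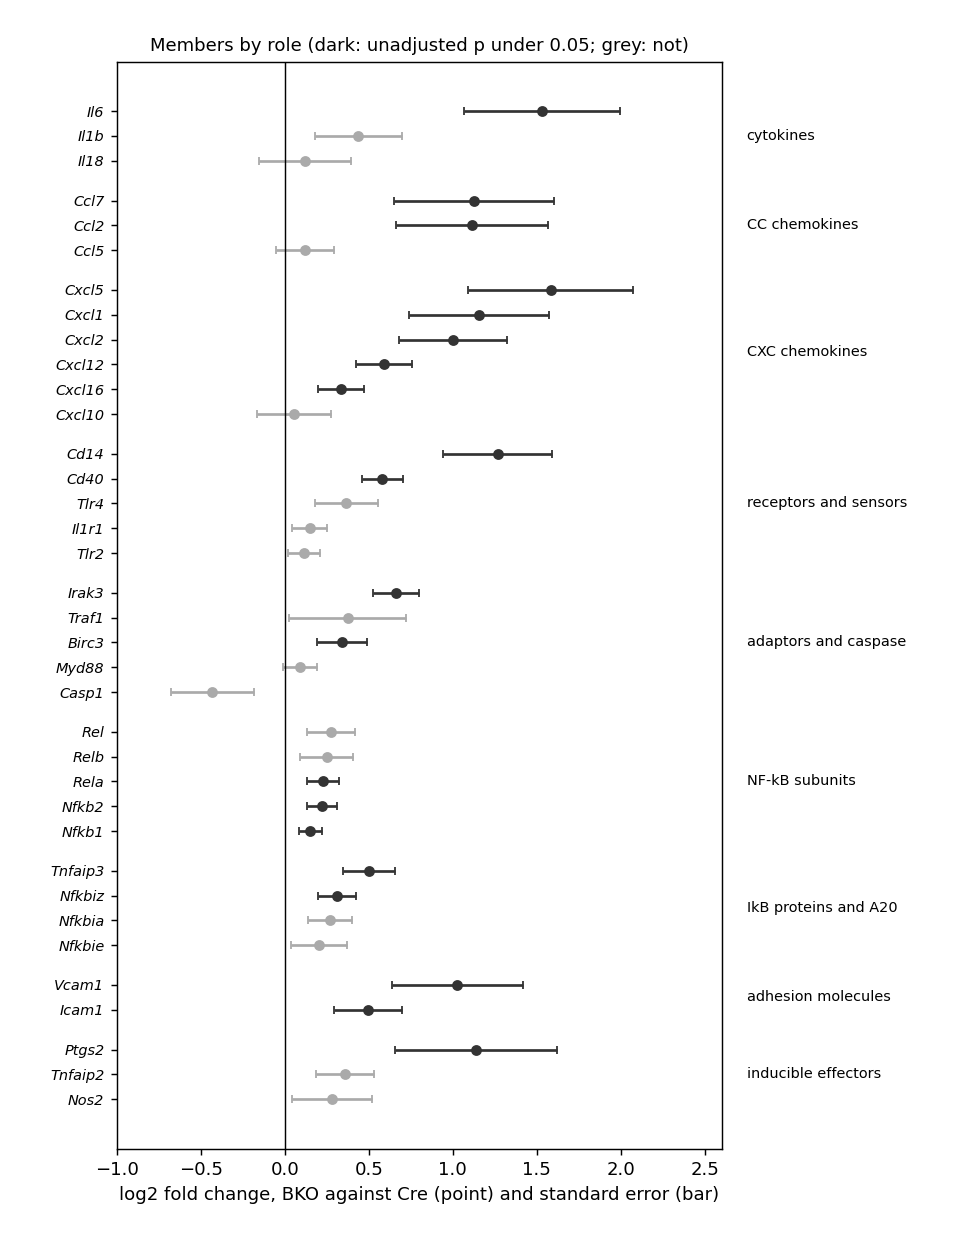
Log2 fold change of BKO against Cre (points, horizontal axis) with its standard error (bars) for the 36 members tested, grouped by role, with 6 libraries per genotype. The 20 dark points had an unadjusted p under 0.05, and Casp1 alone lies below 0.

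Gene totals ranged from 10356093 to 11902217 reads in BKO and from 11444273 to 12397139 in Cre (exact two-sided permutation p = 0.0152). The targeted gene, Il22ra1, had between 1 and 5 reads in every library, too few to check the deletion. BKO-2 and BKO-5 stood apart from the other BKO libraries for many members. The β-cell markers of the tissue were abundant, with a summed level between 97991 and 156260 CPM, a gene's reads scaled to its library's total, over all libraries.

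Interleukin-6, the acute-phase cytokine, had the largest difference of the cytokines. Il6 (chromosome 5, 30013114 to 30019981) was between 14.5 and 52.6 CPM in BKO, with a median of 18.4, and between 3.27 and 14.8 CPM in Cre, with a median of 8.92. BKO-2 and BKO-5 were the 2 highest of the 12 libraries, 5 of 6 BKO libraries lay above every Cre library, and BKO-6 lay within the Cre range. Its log2 fold change was 1.53 ± 0.47 (SE, n = 6 each; edgeR adjusted p = 0.212), and 1.22 without BKO-2. Il1b, which encodes interleukin-1β, was between 3.19 and 9.40 CPM in BKO (median 6.56) and between 2.65 and 7.31 CPM in Cre (median 4.45). The genotypes overlapped, with a log2 fold change of 0.44 ± 0.26 (edgeR adjusted p = 0.507), and the highest BKO library was BKO-1, without which it was 0.28. Il18, another cytokine activated by caspase-1, was between 1.74 and 4.22 CPM in BKO (median 2.89) and between 1.66 and 4.30 CPM in Cre (median 2.47), with a log2 fold change of 0.12 ± 0.27 (edgeR adjusted p = 0.910). Tnf, for tumour necrosis factor, had 3 to 17 reads per library and was not tested. It was between 0.549 and 1.502 CPM in BKO (median 0.989) and between 0.247 and 0.953 CPM in Cre (median 0.471). All 6 BKO libraries lay above the Cre mean.

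None of the chemokines passed the test. Cxcl1, Cxcl2, Cxcl5, Ccl2 and Ccl7 had log2 fold changes from 1.00 to 1.58. Those of Cxcl10 and Ccl5, known as interferon targets, were 0.054 and 0.12. Cxcl5, Cxcl1 and Cxcl2 encode ligands of the neutrophil receptor CXCR2 and lie near each other on chromosome 5. Cxcl5 was between 10.8 and 56.9 CPM in BKO (median 18.1) and between 3.36 and 14.0 CPM in Cre (median 8.78). All but BKO-3 lay above every Cre library, and the log2 fold change was 1.58 ± 0.49 (SE; edgeR adjusted p = 0.222).
Cxcl1 ranged from 12.3 to 64.0 CPM in BKO (median 21.9) and from 8.04 to 20.04 CPM in Cre (median 13.4), a log2 fold change of 1.16 ± 0.42 (edgeR adjusted p = 0.276), which was 0.76 without BKO-2. Cxcl2 ranged from 2.93 to 14.4 CPM in BKO (median 6.23) and from 2.90 to 5.02 CPM in Cre (median 3.72), a log2 fold change of 1.00 ± 0.32 (edgeR adjusted p = 0.216). In both genes BKO-3 was the lowest BKO library and lay within the Cre range.

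Ccl2 and Ccl7, monocyte chemoattractants that are neighbours on chromosome 11, followed the same order of libraries at the top. Ccl2 ranged from 29.1 to 119 CPM in BKO (median 48.3) and from 11.6 to 48.2 CPM in Cre (median 25.9). Its log2 fold change was 1.12 ± 0.45 (edgeR adjusted p = 0.327), with 3 of 6 BKO libraries above every Cre library. Ccl7 ranged from 5.03 to 20.9 CPM in BKO (median 8.51) and from 1.99 to 9.37 CPM in Cre (median 4.37), a log2 fold change of 1.13 ± 0.48 (edgeR adjusted p = 0.342), with 2 of 6 BKO libraries above every Cre library. Cxcl12, a ligand of CXCR4 that mesenchymal cells make in many tissues, differed in its order of libraries. It was between 8.78 and 15.4 CPM in BKO (median 11.7) and between 5.47 and 10.3 CPM in Cre (median 7.85), with BKO-6 the highest, a log2 fold change of 0.59 ± 0.17 (edgeR adjusted p = 0.168). Cxcl16, the transmembrane ligand of CXCR6, was between 20.6 and 38.9 CPM in BKO (median 30.7) and between 18.4 and 27.1 CPM in Cre (median 25.2), a log2 fold change of 0.33 ± 0.14 (edgeR adjusted p = 0.300). Its exons overlap those of Zmynd15 on the other strand, and the labels do not say whether counting used strand.

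The interferon-inducible chemokines among the members differed by less than their spread between libraries. Cxcl10, a ligand of CXCR3 on T cells, had a log2 fold change of 0.054 ± 0.22, and its highest value, 58.04 CPM, was in Cre-1. With 1 library left out, the log2 fold change of Cxcl10 ran from -0.048 to 0.29. Ccl5 had one of 0.12 ± 0.17. Cxcl9 had at most 11 reads in any library and was not tested, and its mean over the 6 BKO libraries was 0.487 ± 0.339 CPM (SD) against 0.458 ± 0.350 CPM over the 6 Cre libraries.

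**Figure D2:**
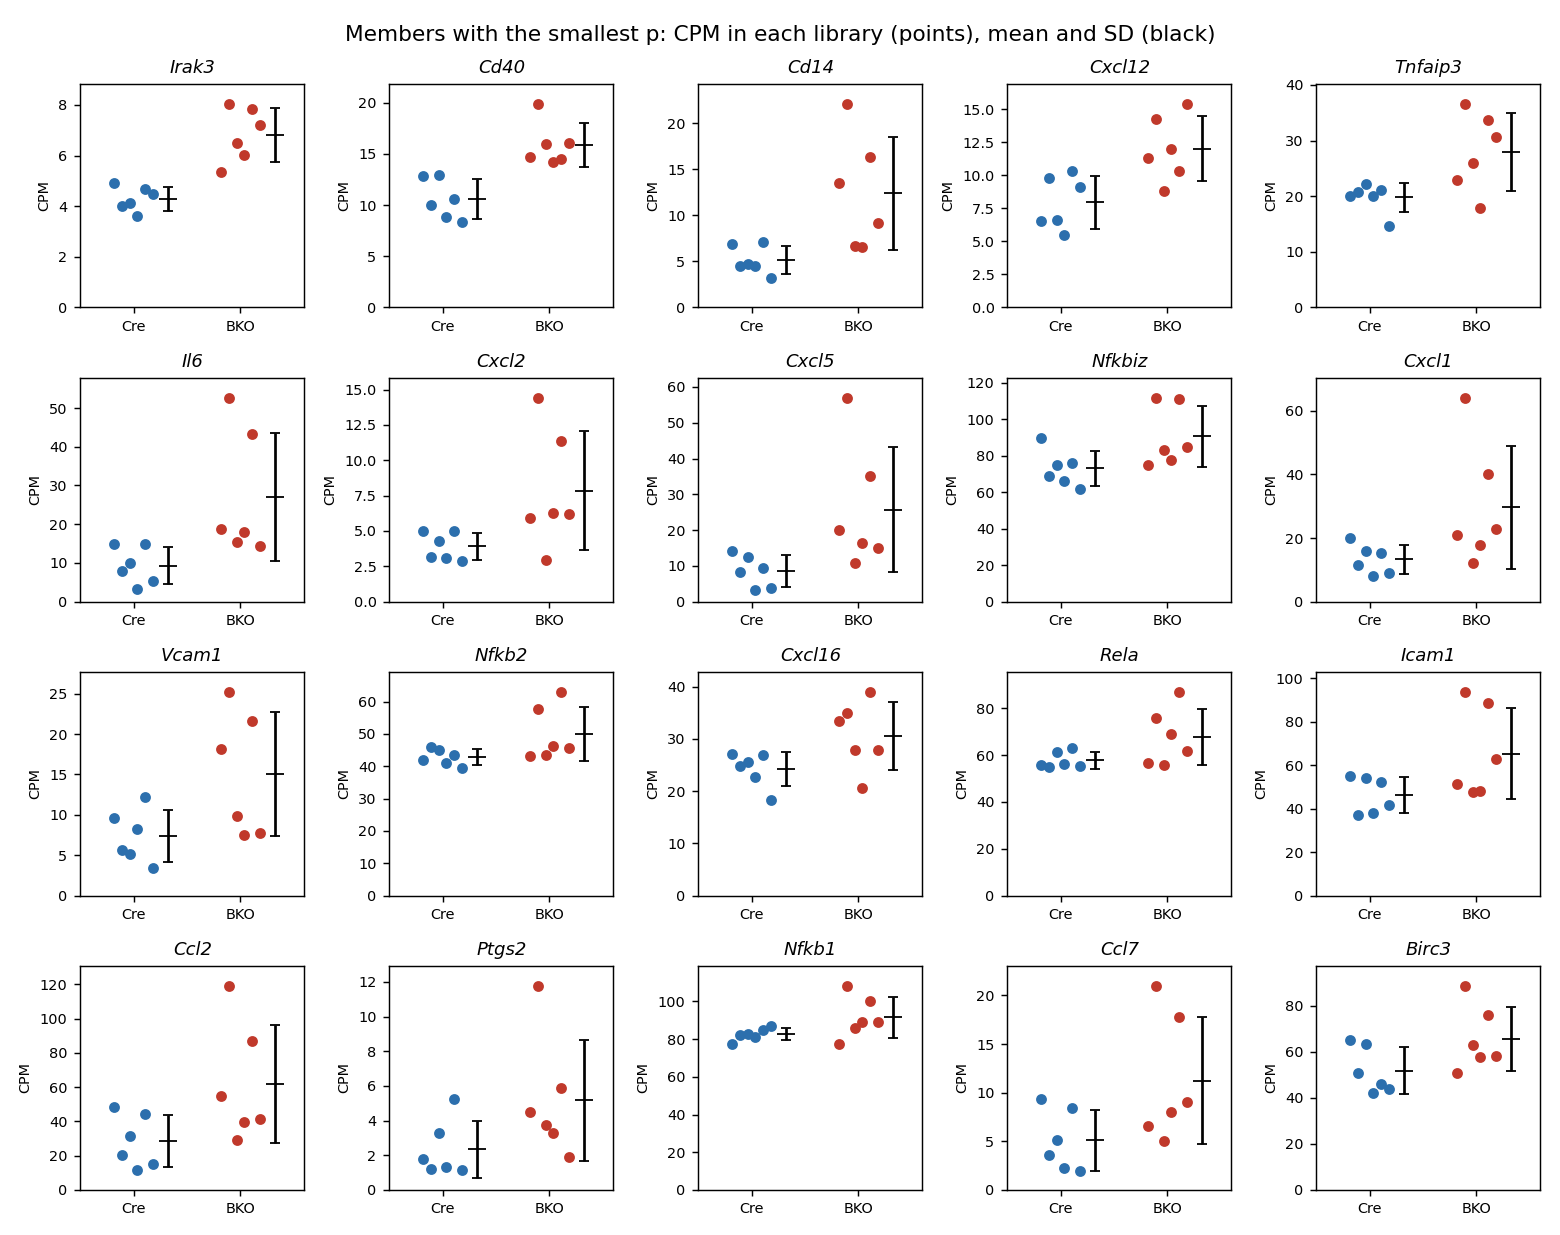
Expression of the 20 members with the smallest p in CPM (vertical axes, each starting at 0), with 1 point per library, 6 Cre libraries in blue and 6 BKO in red, and the mean with its SD in black. The genotypes overlap in all panels except Irak3 and Cd40, and in Il6, Cxcl1, Cxcl2, Cxcl5, Ccl2 and Ccl7 the 2 highest points are BKO-2 and BKO-5.

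Among receptors and sensors, Cd40 and Cd14 had the smallest p. Cd40, the receptor for the T-cell ligand CD154 and an activator of both NF-κB pathways, was between 14.2 and 19.9 CPM in BKO (median 15.3) and between 8.36 and 12.9 CPM in Cre (median 10.3). Every BKO library lay above every Cre library, with a log2 fold change of 0.58 ± 0.12 (SE; edgeR adjusted p = 0.121; DESeq2 adjusted p = 0.00782). Cd14, which presents lipopolysaccharide to Toll-like receptor 4, was between 6.53 and 22.1 CPM in BKO (median 11.4) and between 3.15 and 7.08 CPM in Cre (median 4.64). In 4 of 6 BKO libraries it lay above every Cre library, and the log2 fold change was 1.27 ± 0.32 (edgeR adjusted p = 0.156; DESeq2 adjusted p = 0.00704). The partners of CD14 differed less. Tlr4 had a log2 fold change of 0.37 ± 0.19 (edgeR adjusted p = 0.417) and Tlr2, the receptor for bacterial lipoproteins, of 0.11 ± 0.093. Il1r1, the signalling receptor for interleukin-1, averaged 595 ± 93.4 CPM (SD) over the 6 BKO libraries against 538 ± 60.3 CPM over Cre, for a log2 fold change of 0.15 ± 0.10. Without BKO-1 Il1r1 was at 0.084, and without BKO-2 Tlr2 was at 0.035. Nlrp3, an inflammasome sensor, had at most 10 reads in any library and was not tested.

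Irak3, also called IRAK-M, is a brake on interleukin-1 and Toll-like receptor signalling, and it had the smallest p of all members. It was between 5.34 and 8.04 CPM in BKO (median 6.86) and between 3.62 and 4.90 CPM in Cre (median 4.30). The genotypes did not overlap, and the log2 fold change was 0.66 ± 0.14 (SE; edgeR adjusted p = 0.121; DESeq2 adjusted p = 0.0105). Irak3 and Cd40 were the 2 of 36 members (5.56%) in which every BKO library lay above every Cre library, which held for 0.331% of all tested genes. The exons of Irak3 overlap those of Tmbim4 and Gm47009 on the other strand. Birc3, a ubiquitin ligase in receptor complexes of the tumour necrosis factor family, was between 50.7 and 88.5 CPM in BKO (median 60.7) and between 42.0 and 65.4 CPM in Cre (median 48.4), a log2 fold change of 0.34 ± 0.15 (edgeR adjusted p = 0.357), which was 0.22 without BKO-2. Traf1, an adaptor in the same complexes, had a log2 fold change of 0.37 ± 0.35 and Myd88, the adaptor shared by interleukin-1 and most Toll-like receptors, of 0.090 ± 0.099. Without BKO-2 Traf1 was at 0.20, without Cre-5 at 0.78, and without BKO-5 Myd88 was at 0.019. Casp1, which activates interleukin-1β and interleukin-18, was between 1.38 and 2.20 CPM in BKO and between 1.41 and 4.47 CPM in Cre. All 6 BKO libraries lay below the Cre mean, while the log2 fold change of -0.43 ± 0.25 had an edgeR adjusted p of 0.485.

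The 5 genes of the NF-κB subunits had small positive fold changes of similar size, from 0.15 to 0.27 on the log2 scale. Rela, which encodes the main activating subunit p65, was between 55.9 and 86.8 CPM in BKO (median 65.4) and between 55.0 and 63.1 CPM in Cre (median 55.9), a log2 fold change of 0.23 ± 0.094 (SE; edgeR adjusted p = 0.307). Nfkb1, the precursor of p50, was between 77.6 and 108 CPM in BKO (median 89.1) and between 77.5 and 86.8 CPM in Cre (median 82.6), a log2 fold change of 0.15 ± 0.067 (edgeR adjusted p = 0.342). Nfkb2, the precursor of p52 in the non-canonical pathway, was between 43.0 and 62.9 CPM in BKO (median 45.9) and between 39.3 and 46.0 CPM in Cre (median 42.7), a log2 fold change of 0.22 ± 0.089 (edgeR adjusted p = 0.295). In these 3 genes the BKO range began inside the Cre range and reached beyond it.
Relb, the partner of p52, was between 13.2 and 25.998 CPM in BKO (median 17.1) and between 12.8 and 17.6 CPM in Cre (median 16.6), with a log2 fold change of 0.25 ± 0.16. Rel, the subunit prominent in lymphocytes, was between 4.99996 and 6.71 CPM in BKO (median 6.13) and between 3.73 and 6.21 CPM in Cre (median 4.96), with a log2 fold change of 0.27 ± 0.14. Neither reached an unadjusted p under 0.05. Leaving out BKO-5 brought Nfkb2, Rela and Relb each to 0.13, and leaving out BKO-2 brought Nfkb1 to 0.083.

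The inhibitors induced by NF-κB had fold changes of the same sign. Tnfaip3 encodes A20, an enzyme that edits ubiquitin chains and shuts signalling off. It was between 17.9 and 36.6 CPM in BKO (median 28.3) and between 14.6 and 22.2 CPM in Cre (median 20.4), with 5 of 6 BKO libraries above every Cre library and a log2 fold change of 0.50 ± 0.16 (edgeR adjusted p = 0.199). Nfkbiz, a nuclear IκB protein that is needed for full Il6 induction in several cell types, was between 75.1 and 112 CPM in BKO (median 84.0) and between 61.9 and 89.7 CPM in Cre (median 72.1), a log2 fold change of 0.31 ± 0.12 (edgeR adjusted p = 0.273). Nfkbia, the classical IκBα, had a log2 fold change of 0.27 ± 0.13 and Nfkbie, IκBε, of 0.20 ± 0.17, and both overlapped between genotypes. Without BKO-2 they were 0.16 and 0.021.

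Both adhesion molecules had an unadjusted p under 0.05. Icam1, the endothelial ligand of leukocyte integrins, was between 47.7 and 93.6 CPM in BKO (median 57.2) and between 37.1 and 54.9 CPM in Cre (median 47.0), a log2 fold change of 0.49 ± 0.20 (SE; edgeR adjusted p = 0.322). Vcam1, which binds integrins of lymphocytes and monocytes, was between 7.49 and 25.2 CPM in BKO (median 14.0) and between 3.48 and 12.2 CPM in Cre (median 6.92), a log2 fold change of 1.03 ± 0.39 (edgeR adjusted p = 0.293). In each, 3 of 6 BKO libraries lay above every Cre library. Of the inducible effectors, Ptgs2, the prostaglandin-forming cyclooxygenase-2, was between 1.88 and 11.7 CPM in BKO (median 4.12) and between 1.16 and 5.27 CPM in Cre (median 1.57). Its log2 fold change of 1.14 ± 0.48 (edgeR adjusted p = 0.336) was 0.70 without BKO-2. Tnfaip2 had a log2 fold change of 0.36 ± 0.17, and Nos2, the inducible nitric oxide synthase that cytokines switch on in β cells, of 0.28 ± 0.24 (edgeR adjusted p = 0.680), where BKO averaged 6.63 ± 2.13 CPM (SD) and Cre 5.46 ± 1.78 CPM. Without BKO-1 it was 0.15.

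Divided by the length of each gene's exons, the levels of the members differed widely. In Cre islets Il1r1 was the most abundant member at 84.5 CPM per kb of exon, followed by Nfkbia at 39.4, Ccl2 at 25.04, Tlr2 at 19.2 and Rela at 18.8 CPM per kb. Il6 was at 3.84 CPM per kb in Cre and 11.1 in BKO. The lowest were Nlrp3 at 0.0967 and Cxcl9 at 0.152 CPM per kb.

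Some members shared the libraries at the top and the bottom of their order. For Il6, Cxcl1, Cxcl2, Cxcl5, Ccl2 and Ccl7, chosen for this count after their values were seen, BKO-2 was the highest and BKO-5 the second of the 12 libraries in all 6 genes. Cre-4 was the lowest library in 4 of them and Cre-6 in the other 2, while the places between differed from gene to gene. Other inducible members had other libraries at the top: BKO-1 for Il1b and Nos2, Cre-1 for Cxcl10 and Cre-5 for Traf1. Over the 36 members tested, BKO-2 was the highest BKO library in 23 (63.9%), against 14.3% of all tested genes. BKO-5 was among the 2 highest of the 12 libraries in 24 members, against 24.1% of all tested genes, and Cre-6 was the lowest library in 16, against 8.78%. The median difference of the 36 members from the Cre mean was 0.70 in BKO-2 and 0.58 in BKO-5 (log2 CPM), and between 0.12 and 0.23 in the other 4 BKO libraries. In Cre it ran from -0.31 in Cre-6 to 0.30 in Cre-1, so that Cre-1 lay above those 4 BKO libraries.

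**Figure D3:**
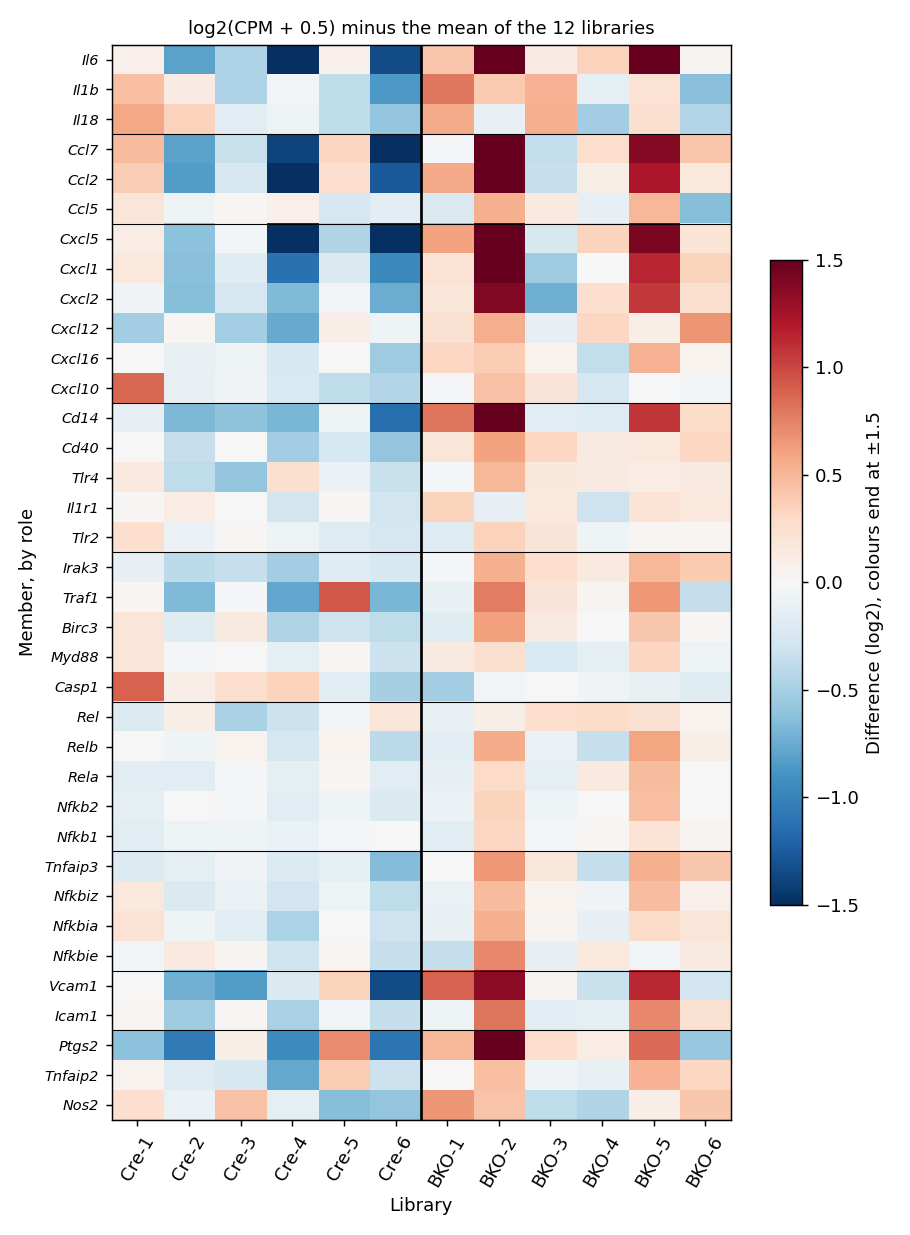
Difference of log2(CPM + 0.5) from the mean of all 12 libraries for the 36 members tested (rows, by role) in each library (columns, Cre left and BKO right of the black line). Columns BKO-2 and BKO-5 are red over most rows, and Cre-4 and Cre-6 are blue for Il6, Cxcl1, Cxcl2, Cxcl5, Ccl2 and Ccl7.

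Other genes of the same pathway were read from lists of 132 genes, of which 91 were tested. By edgeR, 0 of them had an adjusted p under 0.05 over all genes. At an unadjusted p under 0.05, 23 were higher in BKO (8.7% of all tested genes were) and 1 was lower (4.66% were), and the median log2 fold change was 0.11. Without BKO-2 the number higher was 14 and without BKO-5 it was 15. Of 9 other cytokines tested 5 were higher at that p, and those with the smallest p were Lif (1.17 ± 0.37), Csf3 (1.26 ± 0.42), which encodes the neutrophil growth factor G-CSF, and Csf1 (0.28 ± 0.12). Of 8 other chemokines 4 were higher, and those with the smallest p were Cx3cl1, the endothelial ligand fractalkine, at 0.50 ± 0.12 (edgeR adjusted p = 0.148; DESeq2 adjusted p = 0.0183), Ccl11 at 1.35 ± 0.44 and Cxcl14 at 0.85 ± 0.29. Cxcl11, an interferon-inducible ligand of CXCR3, was the gene that was lower (-0.79 ± 0.31). Its highest value, 7.05 CPM, was in Cre-1, without which its unadjusted edgeR p was 0.063. Of 14 other NF-κB targets 6 were higher, and those with the smallest p were Ier3 (0.61 ± 0.19), which is also on the list of immediate early genes, Selp (1.94 ± 0.59) and Lcn2 (0.97 ± 0.30). Selp, the P-selectin of platelets and venular endothelium, was between 20.03 and 144 CPM in BKO and between 7.70 and 51.9 CPM in Cre.

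Lists of the upstream machinery and receptors had medians from 0.0066 to 0.18, against 0.0078 over all tested genes. Of 23 IκB kinases, adaptors and related kinases tested, 3 were higher at an unadjusted p under 0.05, Tirap (0.27 ± 0.11), Map3k8 (0.37 ± 0.16) and Irak2 (0.23 ± 0.11), and the list median was 0.0066, the lowest of these lists. Of 13 other feedback inhibitors 2 were higher, Bcl3 (0.36 ± 0.13) and Nfkbid (0.40 ± 0.18). Of 14 other receptors 1 was higher, Tnfrsf1b (0.69 ± 0.23), the second receptor for tumour necrosis factor. Of 5 chemokine receptors tested 2 were higher, Ackr1 (1.77 ± 0.64), a chemokine-binding protein of venules and red cells, and Ackr3 (0.41 ± 0.16). Of 5 inflammasome partners tested 0 were, and their median was 0.18.

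**Figure D4:**
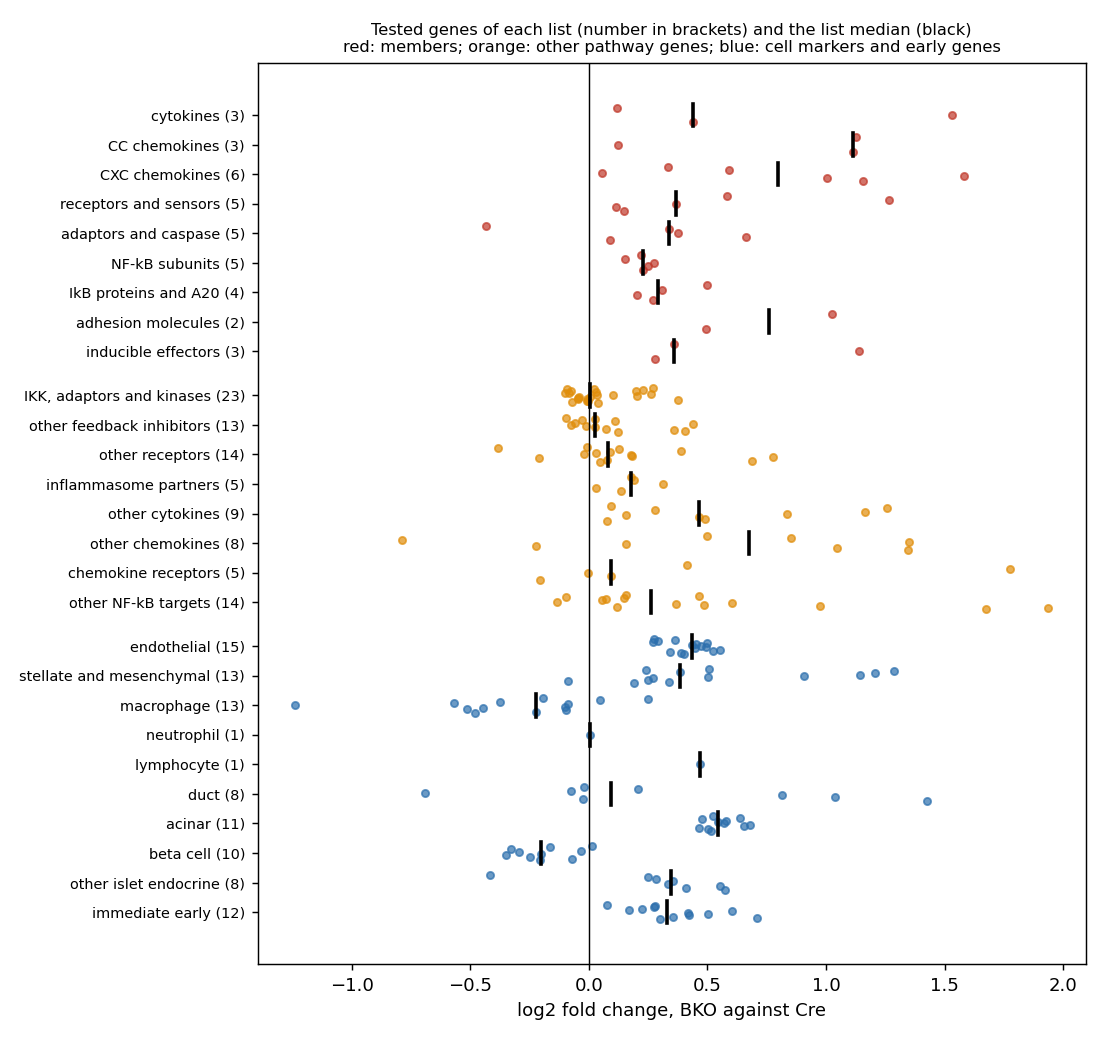
Log2 fold change of BKO against Cre (horizontal axis) of every tested gene (points) with the median of its list (black), for the members by role (red), other genes of the pathway (orange), and cell markers and early response genes (blue). Chemokines and cytokines spread to the right, the kinases and adaptors centre near 0, and macrophage and β-cell markers centre below 0.

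No marker list passed adjustment over the 10 lists, and the lists differed in direction. All 15 endothelial markers had a positive fold change. At an unadjusted p under 0.05, 13 of them were higher in BKO, where 8.7% of all tested genes were. The list's summed level was between 659 and 956 CPM in BKO and between 529.7 and 752 CPM in Cre. Egfl7 and Flt1 had the smallest p of the list (edgeR adjusted p = 0.121 each, DESeq2 adjusted p = 0.00389 and 0.00534). Pecam1, Esam, Plvap, Tie1, Tek and Emcn also had a DESeq2 adjusted p under 0.05 (0.00704 to 0.0481). DESeq2 called 1.24% of all tested genes higher. The remaining endothelial markers did not pass, with DESeq2 adjusted p from 0.0515 (Cdh5) to 0.740 (Cldn5). In Egfl7, as in Irak3 and Cd40, every BKO library lay above every Cre library, which held for 0.331% of all tested genes. The same was true of Rgs5, a stellate and mesenchymal marker, and of Ier2, an immediate early gene. The endothelial score, the mean log2 CPM of the list, was 5.31 ± 0.199 in BKO (SD) against 4.90 ± 0.192 in Cre (exact permutation test, two-sided p = 0.00649, and 0.0649 after adjustment over 10 lists). Of 13 stellate and mesenchymal markers 12 were positive, and 7 were higher at an unadjusted p under 0.05. Their summed level was 226 to 353 CPM in BKO and 162 to 321 CPM in Cre. Their score was higher by 0.57 (exact permutation p = 0.0411, adjusted 0.137). All 12 immediate early genes, which respond to stimulation or tissue handling, were positive, 8 of them at an unadjusted p under 0.05. Their sums were 575 to 891 CPM in BKO and 557 to 665 CPM in Cre (exact permutation p of the score 0.0390, adjusted 0.137). Acinar markers, from the exocrine pancreas, were positive in all 11 tested, with sums of 1492 to 5285 CPM in BKO and 241 to 6725 CPM in Cre (exact permutation p of the score 0.171, adjusted 0.190). Macrophage markers went the other way, with 2 of 13 positive and sums of 158 to 218 CPM in BKO and 181 to 255 CPM in Cre (exact permutation p of the score 0.171, adjusted 0.190). At an unadjusted p under 0.05, 3 of them were lower in BKO, where 4.66% of all tested genes were. Itgax, with 3 to 31 reads per library, had the smallest p (-1.24 ± 0.28, edgeR adjusted p = 0.128, DESeq2 adjusted p = 0.0127). Every BKO library lay below every Cre library for Itgax, which held for 0.177% of all tested genes. Of the 10 β-cell markers 9 had a negative fold change. At an unadjusted p under 0.05, 3 of the 10 were lower, where 4.66% of all tested genes were. The β-cell score was 10.03 in BKO, below the Cre score of 10.24 (exact permutation p = 0.0584, adjusted 0.146). The duct score was 5.76 against 5.46 (exact permutation p = 0.0844, adjusted 0.158), and that of the other islet endocrine cells 7.81 against 7.52 (exact permutation p = 0.110, adjusted 0.158). Higher at an unadjusted p under 0.05 were 3 of 8 duct, 5 of 8 other islet endocrine and 0 of 11 acinar markers. The neutrophil genes Mpo, Elane and Retnlg had 0 reads in all 12 libraries, S100a8 had at most 8 and Csf3r at most 16. S100a9, the only neutrophil gene tested, had 12 to 59 reads per library and a log2 fold change of 0.0055 ± 0.28. Of the lymphocyte markers, Cd3e and Ms4a1 had at most 2 reads and Nkg7 at most 1, while Cd79a reached 36.

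BKO-2 and BKO-5 had the 2 highest endothelial scores of the 12 libraries, 5.47 and 5.57, and the 2 highest stellate scores, 3.514 and 3.412, the second of them level with Cre-5 at 3.412. These libraries also had the 2 highest duct scores, 6.07 and 6.09, and the 2 lowest β-cell scores, 9.83 and 9.79. The duct and β-cell scores were not fitted as covariates. The macrophage scores of BKO-2 and BKO-5, 2.58 and 2.46, lay within the range of the Cre libraries. The immediate early score was highest in BKO-2 (5.80), then in BKO-3 (5.76) and BKO-5 (5.66), and at most 5.42 in the other libraries. In BKO-3, Cxcl1, Cxcl2, Cxcl5, Ccl2 and Ccl7 were at their lowest among BKO libraries, while Il6 was lowest in BKO-6. In bulk islets, a different number of cells of a type and a different amount of RNA per cell cannot be told apart. With a score as a covariate, the number of members higher at an unadjusted p under 0.05 was 1 (endothelial; Cd40, at 0.49), 3 (stellate), 4 (immediate early), 8 (acinar) and 19 (macrophage), where 2.4%, 2.98%, 3.97%, 5.91% and 6.95% of all tested genes were higher. Casp1 was lower at that p with the acinar score (2.55% of all genes were) and with the immediate early score (2%). With the endothelial score Il6 had a log2 fold change of 0.33, Cxcl5 of 0.63, Cd14 of 0.63 and Irak3 of 0.30, and Ccl7 turned to -0.25. The endothelial, stellate, immediate early and acinar scores were higher on average in BKO, so as covariates they can take up part of the difference between genotypes, and the part of each cell type in the members' values was not tested.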

How the data were processed

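The authors deposited raw read counts per gene symbol for each library, made with HISAT2 2.0.5, HTSeq and mm10 per the submitters' processing notes. Neither the annotation nor the strand setting was stated there. Summary lines that name no gene held between 34.7% and 45.8% of all counted reads and were left out, the highest share being in Cre-1. A series-wide table of the same counts scaled to library size was not used. The test was edgeR 4.0.16 (R 4.3.3) with filterByExpr (13583 genes kept), TMM scaling, robust glmQLFit and glmQLFTest, with Benjamini-Hochberg adjusted p under 0.05 as the threshold. CPM values (reads scaled to library total) use TMM-scaled library sizes. DESeq2 1.42.0, limma-voom (limma 3.58.1) and other scalings, filters, covariates and left-out libraries were alternatives; the stellate and immediate early scores were added after the data were examined. Exact permutation tests use all 924 splits of 6 against 6, with 0.00216 as the smallest p. No pair of libraries was alike within sampling noise (chi-square over its degrees of freedom 5.07 to 30.2). The edgeR, DESeq2 and limma-voom fits were tested on simulated counts. A library's floor of 3 reads lies between 0.242 and 0.290 CPM. Positions and exon lengths come from GENCODE M21 on GRCm38.

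The members and lists were chosen with earlier results of these data known. The genes named are the 20 members with the smallest p, the subunits and 4 cytokines. Added to these are up to 3 genes with the smallest p per pathway list, and the markers listed. The remaining members, and the marker genes given by name, were named after their values were seen.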

Additional observations from a re-analysis of the deposited data

Results flagged for a closer look

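In 100 groups of 6 values (each member's CPM, each marker score and the gene totals, by genotype), 6 had 1 library far from the others, with a gap to the nearest value, as a share of the group's range, above Dixon's 95% critical value. Chance flags about 1 in 20 such groups. Cxcl10 was at 58.04 CPM in Cre-1, the library with the largest share of reads of low alignment quality (27.3%), with a gap of 0.790 of the range. The same library had an immediate early score of 5.38, above the other Cre libraries (gap 0.696). Cd40 was at 19.9 CPM (gap 0.674) and Tlr4 at 4.95 CPM (gap 0.661) in BKO-2. Traf1 was at 4.61 CPM in Cre-5 (gap 0.669), and Tnfaip3 at 14.6 CPM in Cre-6, below the other Cre libraries (gap 0.709).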

How the results depend on the processing

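Over 25 alternatives, 854 of 900 values of the members kept their direction and their side of the threshold, 13 passed it and 33 changed sign. DESeq2 called 169 genes higher and 54 lower, 3 members among the first. Leaving out 1 library, 0 to 135 genes were called higher and 0 to 127 lower, both most without BKO-4, with 0 to 4 members among those higher. The number of members at an unadjusted p under 0.05 ran from 9 to 22 higher and from 0 to 1 lower, and that of other pathway genes from 14 to 25 higher and 1 to 4 lower. With 1 library left out, 5.54% to 9.14% of all tested genes were higher at that p and 3.74% to 8.63% lower. With the replicate number as a block, 292 genes were called higher (2.15%) and 72 lower (0.53%), with 4 members among the first (Cxcl12, Cd14, Cd40 and Irak3), and 0 other pathway genes were lower at an unadjusted p under 0.05. In their deviations, same-numbered libraries correlated at 0.19 to 0.26 in 4 of 6 pairs, which also matched their own number best, and below 0 for numbers 2 and 3 (lowest -0.072). This is a hint of pairing from the data, not from the design, and the block was not used in the results above.

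With the endothelial, acinar, stellate and immediate early scores, 1, 8, 3 and 4 members had a positive fold change and an unadjusted p under 0.05, and 1 was lower with the acinar and with the immediate early score. Of the 91 other pathway genes tested 0, 9, 2 and 2 were higher, where 2.4%, 5.91%, 2.98% and 3.97% of all tested genes were. Lower were 2 with DESeq2 and 2 with the immediate early score, and 0 with limma-voom, the macrophage or the stellate score. The members' median log2 fold change was 0.096 with the endothelial score. That score turned the log2 fold change of Ccl5 to -0.11, Ccl7 to -0.25, Cxcl10 to -0.094, Icam1 to -0.037, Myd88 to -0.097, Nfkb1 to -0.028, Nfkb2 to -0.030, Nfkbia to -0.12, Nfkbie to -0.15, Nfkbiz to -0.031, Rela to -0.052, Relb to -0.21, Tnfaip2 to -0.23 and Traf1 to -0.59. The acinar score turned Ccl5 to -0.022, Cxcl10 to -0.079 and Il18 to -0.057. The immediate early score turned Ccl5 to -0.25, Cxcl10 to -0.23, Nfkbie to -0.056, Relb to -0.017, Tlr2 to -0.10 and Traf1 to -0.11. The stellate score turned Myd88 to -0.056, Nfkbie to -0.022, Tnfaip2 to -0.015 and Traf1 to -0.18. Leaving out 1 library turned Ccl5 to -0.0063 and Cxcl10 to -0.048 (without BKO-2), Cxcl10 to -0.015 and -0.031 (without Cre-5 and Cre-6) and Il18 to -0.017 and -0.0047 (without BKO-1 and BKO-3). Over all left-out libraries these 3 genes reached 0.22, 0.29 and 0.27 at most. The cause was not tested. The 3 members with at most 17 reads in any library were too shallow for the test.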
